A study of Macaca mulatta with 23 samples.

Results

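Small nucleolar RNAs, small Cajal body RNAs and the long RNAs that host them were followed in CD8+ effector memory T cells of rhesus macaques before and after an antibody against interleukin-15 (anti-IL-15) or a control antibody. Members were all probes whose gene symbol starts with SNORD, SNORA, SCARNA or SNHG and whose signal had a detection p-value under 0.05 on at least 5 of 23 arrays. That rule kept 107 probes for 106 genes, out of 325 such probes on the array design and 15744 probes of any kind that met the same detection rule. There were 42 SNORD, 41 SNORA, 13 SCARNA and 11 SNHG probes, with SNHG15 read by 2 of them.

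Small nucleolar RNAs are short guides that pair with ribosomal RNA and direct its chemical modification in the nucleolus. The SNORD class carries box C/D motifs and guides 2′-O-methylation by the methyltransferase fibrillarin, and the SNORA class carries box H/ACA motifs and guides the conversion of uridine to pseudouridine by dyskerin. The SCARNA class does the same for the small nuclear RNAs of the spliceosome and is held in Cajal bodies, nuclear bodies where small nuclear ribonucleoproteins mature. Most of these guides are cut out of introns, and SNHG genes are hosts whose introns yield the guides while their spliced exons are long RNAs, many of them degraded by nonsense-mediated decay. Interleukin-15 is a survival and proliferation cytokine for CD8+ memory lymphocytes, and ribosome production in T cells rises with growth and activation.

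The study asked how blocking interleukin-15 affects T cell and natural killer cell homeostasis, and here CD8+ effector memory T cells (TEM) sorted from peripheral blood mononuclear cells were measured on Illumina bead arrays. The control animals received IgG1 control antibody and gave 6 arrays before and 6 after treatment, and the other animals received anti-IL-15 antibody and gave 5 arrays before and 6 after. The 23 arrays came from 12 macaques, 11 of them with both times, and anti-IL-15 animal 3 had only the later array. Ages, doses and the interval between the times are not given in the sources used here. Changes were taken within the 11 paired animals, and the arms were also compared at each time.

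The arrays detected 11263 to 14132 of 47230 probes, and 69 to 88 of the 107 members. Of 15 markers of T cells, CD8 and effector memory, 12 had kept probes, among them CD8A and PRF1, and CD3E, TRAC and TRBC1 did not. None of 4 CD4 T cell markers was kept. Of the markers of other cells, 4 of 7 for B cells, 4 of 8 for monocytes and dendritic cells, 5 of 6 for natural killer cells, 4 of 6 for platelets and erythrocytes and 3 of 7 for naive and central memory T cells were kept, while CSF1R, NCR1 and PF4 were not. The summed linear signal of the kept effector markers lay between 46468 and 74404 before and between 37882 and 54208 after the control antibody. With anti-IL-15 it lay between 42434 and 58832 before and between 44395 and 54413 after. The summed monocyte and dendritic cell markers lay between 1672 and 2663 before and 2080 and 3787 after the control antibody, and between 1798 and 3331 before and 2028 and 4232 after anti-IL-15. The summed natural killer cell markers lay between 1836 and 3647 and then 1571 and 3479 in the control animals, and between 1071 and 2521 and then 945 and 1523 in the anti-IL-15 animals. The B cell sum was 150 to 443 (median 160) before and 138 to 483 (median 390) after the control antibody, where 1 of 5 probes, 1 of the 2 for CD79B, was called higher, and 148 to 337 before and 146 to 275 after anti-IL-15. With the control antibody the 4 naive and central memory probes all changed upwards, with a median of 0.37 and no call, and their sum was 215 to 1766 (median 523) before and 419 to 1069 (median 693) after. With anti-IL-15 that sum was 475 to 1067 before and 542 to 821 after. Platelet and erythrocyte sums ranged from 1133 to 39517 over all arrays. 1 of 2 probes for 28S ribosomal RNA rose by 3.67 to 4.30 on the log2 scale in animals 1 and 4 of the control arm and animals 1, 2 and 5 of the anti-IL-15 arm, and changed by -3.64 to 0.14 in the other 6 animals. A probe for 18S ribosomal RNA changed by only -0.12 to 1.17 in the former animals and by -0.84 to 0.16 in the other 6. Sorted cell numbers after treatment were 13.2% to 173% of the earlier number in the control animals and 15.3% to 42.1% in the anti-IL-15 animals.

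Detection differed between the classes. Of 178 SNORD probes on the design, 42 were kept and 89 were never detected, and of 102 SNORA probes 41 were kept and 34 never detected. The SCARNA class kept 13 of 24 and the SNHG class 11 of 21. Signal on all 23 arrays was seen for 10 SNORD, 16 SNORA, 5 SCARNA and 8 SNHG probes. At the edge of the rule, SNORD9, SNORA51 and SNHG7 had 5 arrays and SCARNA12, the SCARNA probe closest to it, had 7, while SNORD34, SNORA38B and SCARNA13 had 4 and SNHG28 had 3. The mean log2 level, that is log2 of the normalised intensity, was under 5 for 32 of the 107 probes, where the lowest signal detected on an array was 4.82 to 5.03. The amplification primes on poly(A) tails, which mature guides mostly lack, and the probes carry human sequence, so a probe of a guide may read unprocessed host RNA or bind the macaque RNA poorly, which was not tested.

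**Figure D1:**
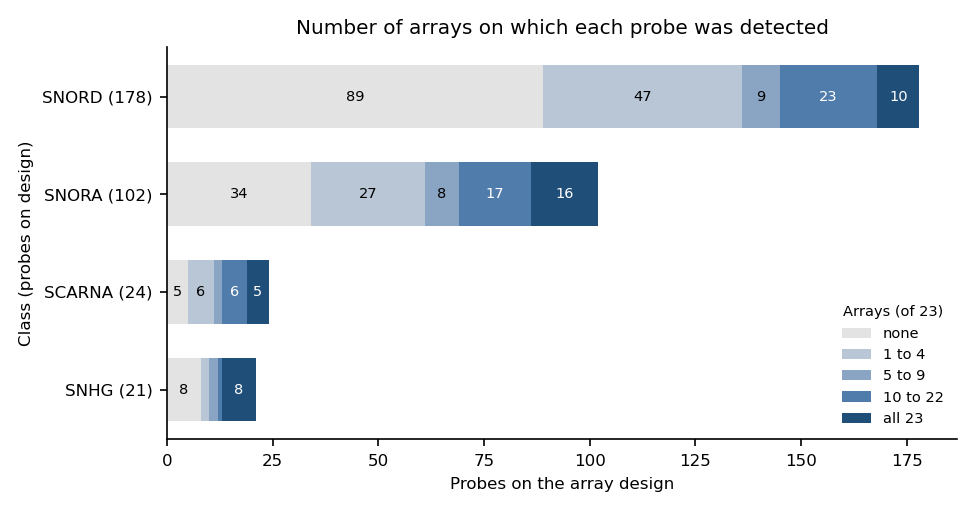
Probes of each class on the array design (horizontal axis, number of probes), divided by the number of arrays on which they had a detection p-value under 0.05. Of 178 SNORD probes 89 were never detected, whereas 8 of 21 SNHG probes were detected on all 23 arrays.

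Across both antibody arms the members that changed were mostly hosts and Cajal body RNAs, and they mostly rose. In the mean change of the arms, the average of the log2 changes with each antibody, 14 of 107 members passed a limma adjusted p under 0.05. These were 12 higher and 2 lower, or 13.1% of the members, against 5.32% of all 15744 probes (2.64% higher and 2.68% lower). By class, 4 of 11 SNHG probes rose, 5 of 13 SCARNA probes rose, 3 of 42 SNORD probes rose and 1 fell, and 1 of 41 SNORA probes fell. With the control antibody 5 members were called, 4 higher and 1 lower, which is 4.67% against 2.14% of all probes (0.889% higher and 1.25% lower). The 1 lower was SNORA35, also 1 of the 2 lower in the mean change. It met the detection rule only with the earlier control arrays, so the rule itself favoured that fall. With anti-IL-15 SNORD104 was the 1 member called, as higher, or 0.935% against 0.254% of all probes (0.165% higher).

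These counts depended on the animals and on technical measures that moved with time. With the log2 number of sorted cells as a covariate no member was called in either arm or in their mean, and 0 probes of the whole array were called with the control antibody. In that fit the mean change was 0.69 for SNHG6 (SE 0.27), 0.46 for SNHG5 (SE 0.20), 0.30 for SNORD104 (SE 0.22) and -0.16 for SCARNA9 (SE 0.34). Cell number mostly fell with time, so the fit cannot tell cell number and time apart. Without the 5 animals whose 28S probe rose, which left 4 pairs in the control arm and 2 in the other, no member was called in any of these comparisons either. When each of the 11 animals was left out in turn, the mean-change calls of SCARNA9L, SNHG5, SNHG6 and SNORD104 held in all 11 fits, and those of the other 10 members were lost in 4 to 10 of them. The control calls were lost in 2 of 6 such fits for SCARNA9L, 3 for SNHG6 and for SNHG8, 4 for SNORA35 and 6 for SNHG15. Labels do not say whether the arrays shared slides, and since levels are relative to total RNA of sorted cells, fewer cells of a type and less RNA per cell cannot be told apart.

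**Figure D2:**
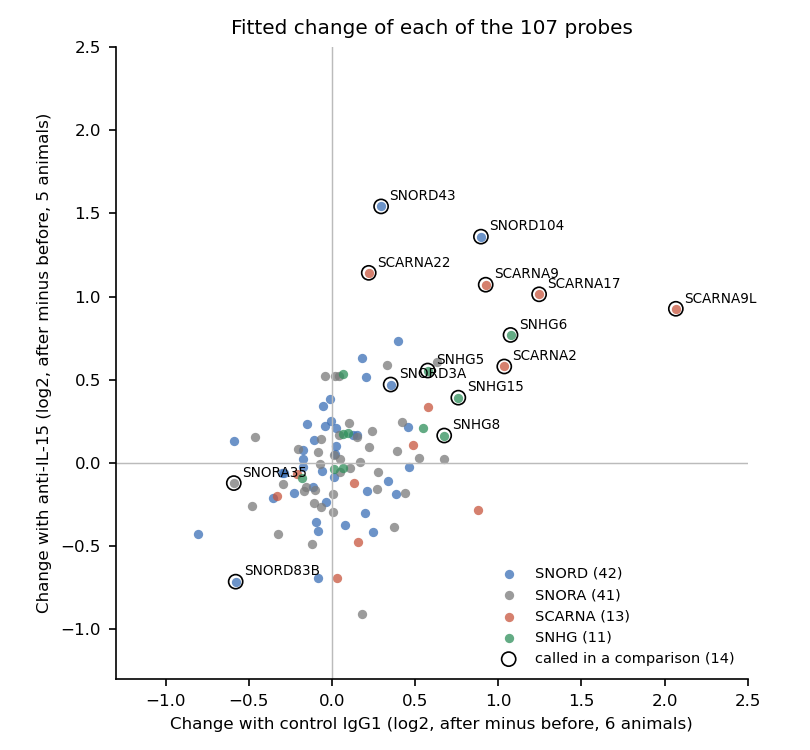
Fitted log2 change with the control antibody (horizontal axis, 6 animals) and with anti-IL-15 (vertical axis, 5 animals) for each of the 107 probes, coloured by class. The 14 circled probes were called in at least 1 comparison, and 12 of them lie to the upper right, with SCARNA9L at 2.07 and 0.93 and SNORD104 at 0.90 and 1.36.

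Among the hosts, SNHG6 and SNHG5 rose in every one of the 11 paired animals. SNHG6, which in human hosts SNORD87, had log2 levels of 7.64 to 8.89 (median 7.89) before and 8.42 to 9.95 (median 9.26) after the control antibody. Before anti-IL-15 its values were 8.28, 9.06, 9.61, 8.57 and 9.20 in animals 1, 2, 4, 5 and 6, and after it they were 9.27 to 10.09 (median 9.66). The groups overlap in both arms, and the rise shows within animals. It was 1.07 with the control antibody (SE 0.22, limma adjusted p = 0.0215) and 0.77 with anti-IL-15 (SE 0.24, adjusted p = 0.171), and the mean change of 0.92 equals 1.89-fold (SE 0.16, adjusted p = 0.00783). By animal the change ran from 0.65 to 2.26 with the control antibody, where animal 2 was highest, and from 0.05 to 1.32 with anti-IL-15, where animal 4 was lowest.

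SNHG5, in human the host of SNORD50A and SNORD50B, moved by nearly the same amount in the arms. Its log2 level was 9.62 ± 0.28 before and 10.20 ± 0.33 after the control antibody (SD, n = 6 each), and 10.09 ± 0.51 (SD, n = 5) before and 10.57 ± 0.33 (SD, n = 6) after anti-IL-15. The change was 0.58 with the control antibody (SE 0.15, limma adjusted p = 0.0522) and 0.56 with anti-IL-15 (SE 0.17, adjusted p = 0.164). Neither arm passed the test by itself, while the mean change of 0.57 did (SE 0.11, adjusted p = 0.0123). The changes of single animals ranged from 0.27 to 1.03 and from 0.25 to 0.97.

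SNHG8, the human host of SNORA24, rose with the control antibody from 12.10 ± 0.48 to 12.77 ± 0.51 (SD, n = 6 each), a change of 0.68 seen in 6 of 6 animals (SE 0.15, limma adjusted p = 0.0292). With anti-IL-15 it averaged 12.61 ± 0.55 (SD, n = 5) before and 12.84 ± 0.22 (SD, n = 6) after, and 3 of 5 animals went up (change 0.16, SE 0.16, adjusted p = 0.696). SNORA24 itself had changes of 0.42 and 0.25 and was not called. SNHG15, host of SNORA9 in human, was read by 2 probes. One rose by 0.76 with the control antibody (SE 0.20, adjusted p = 0.0497), a call lost on leaving out any of the 6 animals (0.0686 to 0.208), and by 0.58 in the mean of the arms (adjusted p = 0.031), higher in 11 of 11 animals. The other went up in 6 of 6 and 4 of 5 animals of the respective arms but was not called, with a mean change of 0.38 (SE 0.15, adjusted p = 0.135).

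The other SNHG probes moved little or were dim. SNHG1, the host of several box C/D guides, had changes of 0.01 and -0.04, SNHG32 of 0.09 and 0.18, and SNHG11 of 0.07 and 0.17 with the control antibody and anti-IL-15. SNHG12 had changes of 0.06 and 0.54. SNHG7 and SNHG17 were detected on 5 arrays each, and no call was made for any of these 6 genes.

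**Figure D3:**
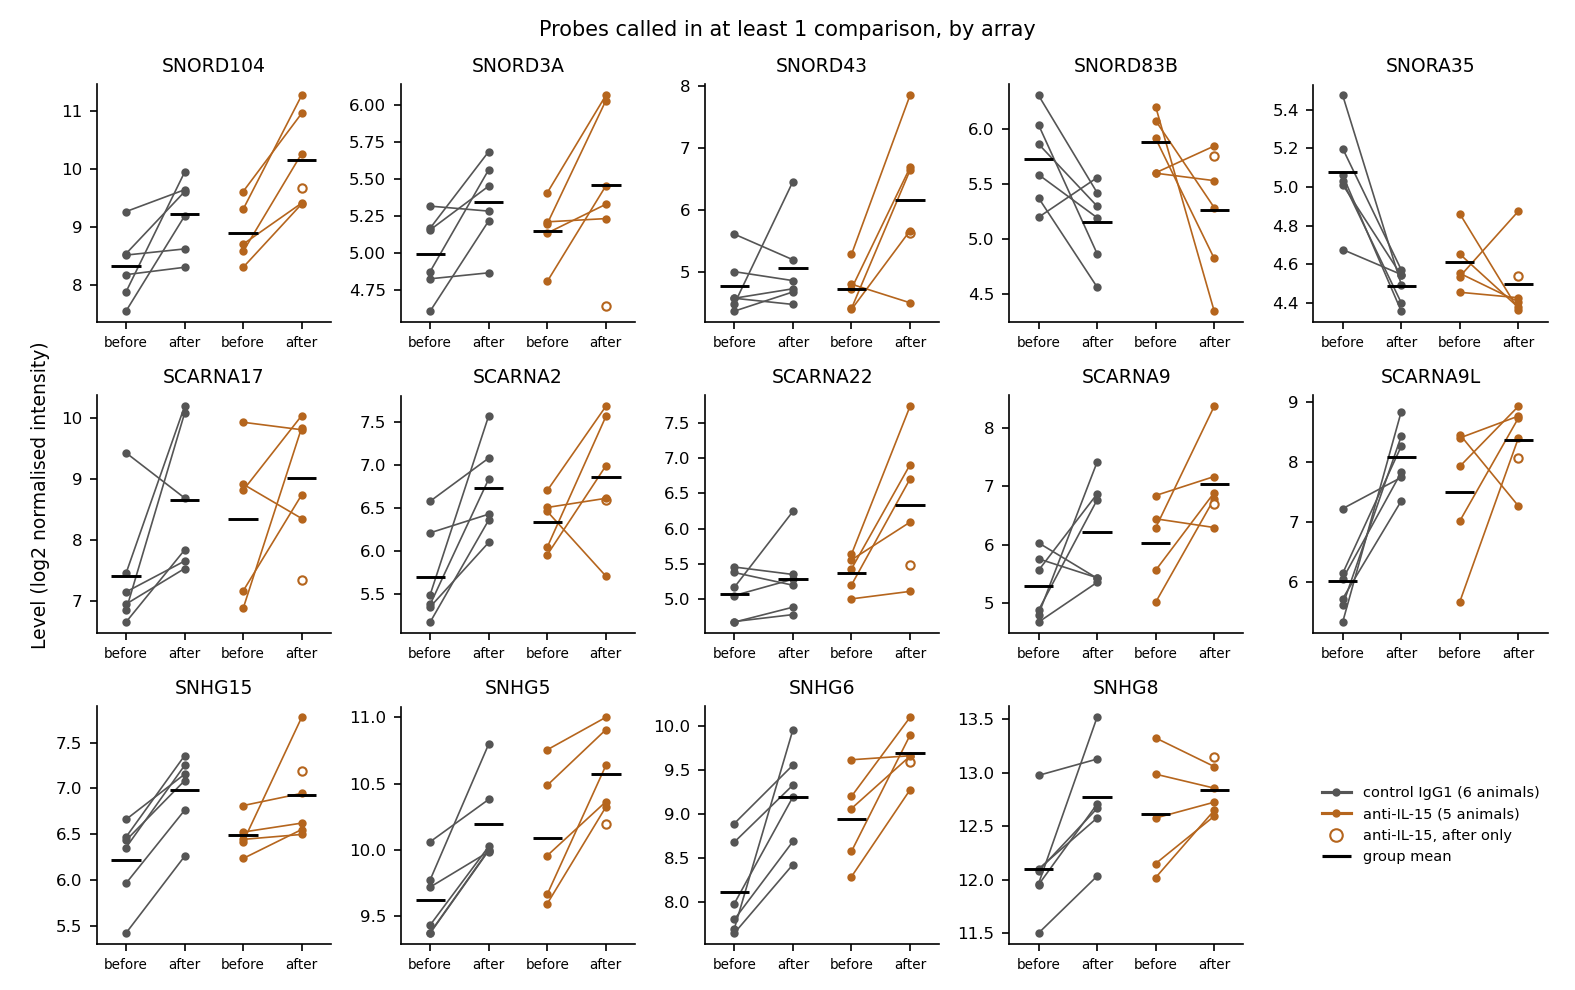
Log2 level (vertical axes, normalised intensity, scales differ) of the 14 probes called in at least 1 comparison, by group. Lines join the arrays of 1 animal, open circles are the anti-IL-15 animal with only a later array, and black bars are group means. SNHG5, SNHG6 and SNORD104 rose in all 11 animals, and the control groups of SCARNA9L do not overlap.

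Among the Cajal body RNAs, SCARNA9L gave the largest change of any member with the control antibody. SCARNA9 guides 2′-O-methylation of U2 small nuclear RNA in human, and SCARNA9L is a locus much like it, so reads of the near copies are uncertain. Log2 levels of SCARNA9L were 5.32 to 7.22 (median 5.88) before and 7.35 to 8.84 (median 8.04) after the control antibody, and those groups do not overlap. It rose in 6 of 6 animals, by 2.07 or 4.19-fold (SE 0.38, limma adjusted p = 0.0123). Before anti-IL-15 the values were 7.01, 7.93, 8.40, 5.66 and 8.46 in animals 1, 2, 4, 5 and 6, and after it 7.27 to 8.93 (median 8.57), with a change of 0.93 in 4 of 5 animals (SE 0.42, adjusted p = 0.352). The anti-IL-15 animals thus began higher, by 1.49 over the control animals before treatment (SE 0.45, adjusted p = 0.348), which did not pass the test.

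SCARNA2, also a guide of U2 in human, had levels of 5.70 ± 0.56 before and 6.73 ± 0.54 after the control antibody (SD, n = 6 each). With anti-IL-15 they were 6.34 ± 0.32 (SD, n = 5) and 6.86 ± 0.73 (SD, n = 6). The mean change was 0.81 (SE 0.20, limma adjusted p = 0.0293), higher in 6 of 6 animals of the control arm and 4 of 5 of the other. SCARNA17 had a mean change of 1.13 (SE 0.32, adjusted p = 0.0446) and SCARNA9 of 1.00 (SE 0.26, adjusted p = 0.0334), each higher in 8 of 11 animals. Neither passed in an arm alone, and SCARNA17 ranged from 6.66 to 9.43 before the control antibody because control animal 3 stood at 9.43 and the next at 7.46.

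The medians of these 4 changes were higher in the 5 animals with the large 28S rise than in the other 6. They were 2.73 against 0.19 for SCARNA17 and 1.89 against 0.09 for SCARNA9. For SCARNA2 they were 1.46 against 0.36, and for SCARNA9L 2.74 against 1.08. In the 5 animals with the large 28S rise, SCARNA17 changed by 1.22 to 3.22, against -0.74 to 1.18 in the other 6. SCARNA9 changed by 1.33 to 2.61 in the former and by -0.61 to 1.31 in the latter. For SCARNA2 the ranges were 0.98 to 2.09 and -0.75 to 1.19, and for SCARNA9L 1.00 to 3.52 and -1.19 to 2.12. For SCARNA17 and SCARNA9 the 2 ranges narrowly do not overlap, while for SCARNA2 and SCARNA9L they do. The ranges of the host RNAs overlapped, with SNHG6 at 0.60 to 1.32 in the 5 animals and 0.05 to 2.26 in the other 6, and SNHG5 at 0.42 to 0.97 and 0.25 to 1.03. The same 5 animals yielded 13.2% to 42.1% of their earlier cell number, against 17.9% to 173% in the others. With the 28S probe as a covariate the mean change was 0.62 for SCARNA17 (limma adjusted p = 0.0339), 0.61 for SCARNA9 (0.0368), 0.55 for SCARNA2 (0.0524) and 1.08 for SCARNA9L (0.00254). Without the 5 animals it was 0.02, 0.18, 0.17 and 0.55, and none was called. The part of the 28S signal or of cell number in these rises was not tested.

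**Figure D4:**
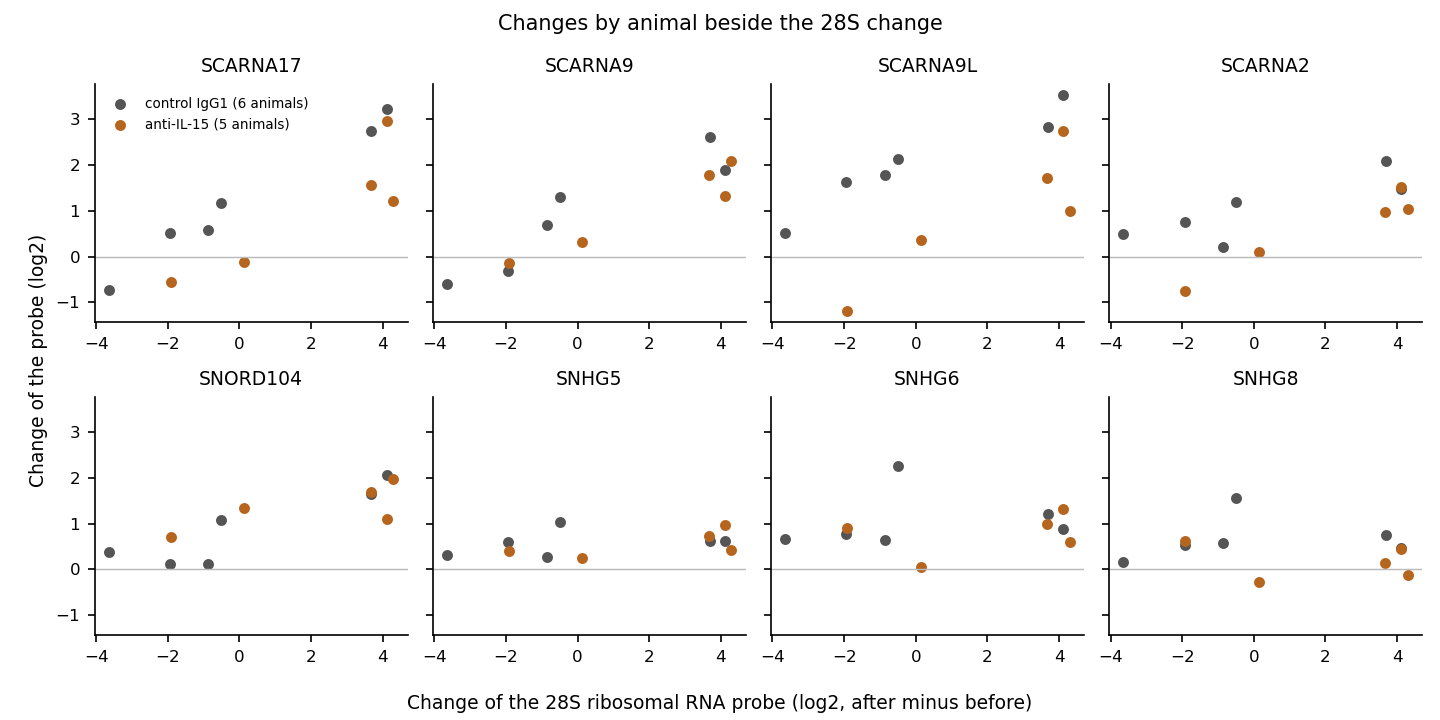
Change of 8 called probes in each animal (vertical axis, log2, after minus before) beside the change of the 28S ribosomal RNA probe (horizontal axis, log2), for both arms (control IgG1 6, anti-IL-15 5). The 5 animals at 3.67 to 4.30 on the horizontal axis hold the 5 largest SCARNA17 changes, while for SNHG5 and SNHG6 the ranges of these 5 and the other 6 animals overlap.

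SCARNA22, which lies in an intron of NSD2 in human, followed another pattern. It averaged 5.07 ± 0.33 before and 5.29 ± 0.52 after the control antibody (SD, n = 6 each), with a change of 0.22 (SE 0.23, limma adjusted p = 0.668). Before anti-IL-15 it stood at 5.20, 5.43, 5.64, 5.56 and 5.01 in animals 1, 2, 4, 5 and 6, and after it at 5.11 to 7.73 (median 6.40). The change there was 1.14 in 5 of 5 animals (SE 0.25, adjusted p = 0.0581) and the mean change 0.68 (SE 0.17, adjusted p = 0.0278). Its difference between the arms was 0.92 (SE 0.34, adjusted p = 0.44), which did not pass. SCARNA7, in human within KPNA4, was not called. It averaged 6.21 ± 0.14 before and 7.09 ± 0.45 after the control antibody (SD, n = 6 each; change 0.88, adjusted p = 0.0761, 6 of 6 animals). With anti-IL-15 it had a change of -0.28 (SE 0.29, adjusted p = 0.72), which turned to 0.13 without animal 6, where it had dropped by 1.94, and the difference between the arms was -1.16 (SE 0.40, adjusted p = 0.412). SCARNA8 was lower in 5 of 5 anti-IL-15 animals, by 0.70 on average, again without a call (adjusted p = 0.113), and SCARNA18 was higher in 11 of 11 animals with a mean change of 0.46 (adjusted p = 0.074).

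Within the box C/D class most probes stayed near 0 and SNORD104 stood out. The class median of the fitted changes was -0.01 with the control antibody and -0.00 with anti-IL-15, where 20 and 21 of 42 probes were above 0. SNORD104, in human within an intron of SNHG25, had log2 levels of 7.55 to 9.26 (median 8.34) before and 8.30 to 9.94 (median 9.40) after the control antibody. Before anti-IL-15 the values were 8.58, 9.30, 9.61, 8.30 and 8.70 in animals 1, 2, 4, 5 and 6, and after it 9.39 to 11.27 (median 9.96). It rose with anti-IL-15 by 1.36 (SE 0.27, limma adjusted p = 0.0346), or 2.57-fold, in 5 of 5 animals. The control change of 0.90 in 6 of 6 animals missed the threshold (SE 0.24, adjusted p = 0.054), and the mean change of 1.13 had the smallest adjusted p of all members (0.00622). In the 5 animals with the large 28S rise SNORD104 changed by 1.09 to 2.06, and in the other 6 by 0.11 to 1.35. The anti-IL-15 call ended without anti-IL-15 animal 1, 2, 4 or 5 (adjusted p = 0.0768 to 0.169) and with the animal as a random block. It also ended with the 28S probe or cell number as a covariate. The mean change was 0.91 with the 28S covariate (limma adjusted p = 0.00133) and 0.30 with cell number (0.996). The part of the 28S signal or of cell number in the rise was not tested.

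SNORD43 and SNORD83B both lie in introns of RPL3 in human and moved in opposite directions. SNORD43 gave signal on 2 of 6 arrays at each time in the control arm, and on 1 of 5 earlier and 5 of 6 later arrays in the anti-IL-15 arm. It averaged 4.73 ± 0.36 (SD, n = 5) before and 6.17 ± 1.15 (SD, n = 6) after anti-IL-15, with changes of 1.95, -0.30, 2.56, 2.23 and 1.27 in animals 1, 2, 4, 5 and 6. The fitted change was 1.54 (SE 0.33, limma adjusted p = 0.0576) against 0.30 with the control antibody, where animal 4 alone moved by 1.97. The mean change of 0.92 was called (adjusted p = 0.026). SNORD83B fell in 9 of 11 animals, with a mean change of -0.65 (SE 0.18, adjusted p = 0.0394) and arm changes of -0.58 and -0.71. Of the RPL3 probes 1 had changes of -0.41 and -0.11 and the other 0.26 and -0.07, none of them called. The probe for SNORD3A, the U3 RNA needed for the first cuts of the ribosomal RNA precursor, was dim. It had signal on 18 of 23 arrays and log2 levels of 4.61 to 6.07, where the lowest detected signals were 4.82 to 5.03. It rose by 0.41 in the mean of the arms (SE 0.12, limma adjusted p = 0.0493), higher in 10 of 11 animals. That call was lost in 10 of 11 fits that left out 1 animal (adjusted p = 0.0349 to 0.125).

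Other box C/D probes gave values without a call. SNORD89, within RNF149 in human, had changes of -0.18 and 0.02, and SNORD38A of 0.46 and -0.03. SNORD21 averaged a change of -0.61 over the arms (adjusted p = 0.115). SNORD9, with signal on 4 of 6 earlier and 1 of 6 later arrays of the control arm, had a change of -0.59 (adjusted p = 0.087). These were its only 5 arrays with signal, so the detection rule favoured a fall there. The 5 kept probes of the SNORD113 and SNORD114 repeats, whose copies resemble each other so that their signals are uncertain, lay between -0.22 and 0.20 with the control antibody. With anti-IL-15 4 of them lay between -0.37 and 0.25. SNORD114-11 gave signal on none of 5 earlier and on 2 of 6 later arrays there. Its group mean was at least 1.07-fold higher later (limma adjusted p = 0.272). By animal it changed by -0.02, 1.02, 0.01, 1.58 and 0 in animals 1, 2, 4, 5 and 6, so animals 2 and 5 carried the rise.

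The box H/ACA class gave the fewest calls for its size. SNORA35, which in human lies within the serotonin receptor gene HTR2C, gave signal on 5 of 6 earlier arrays of the control arm and on none of its 6 later ones. Its levels were 4.68 to 5.47 before and 4.36 to 4.57 after, so the groups do not overlap, and it was at least 1.13-fold lower against the lowest detected signal (limma adjusted p = 0.033). The earlier control arrays were 5 of its 6 arrays with signal. SNORA35 met the detection rule only with them, so the rule itself favoured this pattern. In the anti-IL-15 arm 0 of 5 earlier and 1 of 6 later arrays gave signal, so no fold is given there. SNORA48, within EIF4A1 in human, had changes of 0.63 and 0.61 and a mean change of 0.62 that missed the threshold (SE 0.20, adjusted p = 0.0668). The class medians of the fitted changes were 0.04 and 0.00, with 25 and 21 of 41 probes above 0. SNORA33 within RPS12 had changes of -0.11 and -0.24, and SNORA11B, which has near copies in SNORA11C and SNORA11D, of -0.07 and -0.26. SNORA11D stood at -0.46 in the control arm (adjusted p = 0.0964), and with anti-IL-15 SNORA63 had -0.49 and SNORA51 0.52 (adjusted p = 0.199 and 0.216).

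Set side by side by animal, the classes differed in how evenly they moved. The median over the SNHG probes was above 0 in 6 of 6 control animals, with a mean of 0.33 ± 0.11 (SD, n = 6), and in 5 of 5 anti-IL-15 animals, with 0.26 ± 0.11 (SD, n = 5). The SCARNA median was above 0 in 6 of 6 control animals, at 0.49 ± 0.35 (SD, n = 6), and in 4 of 5 anti-IL-15 animals, at 0.16 ± 0.43 (SD, n = 5), where animal 6 stood at -0.60. The SNORA median was above 0 in 4 of 6 and 2 of 5 animals, at 0.04 ± 0.12 (SD, n = 6) and -0.00 ± 0.11 (SD, n = 5). The SNORD median was above 0 in 4 of 6 and 2 of 5 animals too, at -0.01 ± 0.09 (SD, n = 6) and -0.06 ± 0.08 (SD, n = 5). Over all 15744 probes the medians of single animals lay between -0.05 and 0.03. The medians of the fitted changes of the SNHG class were lower than those by animal, 0.09 and 0.18, since different probes lay in the middle in different animals, and those of the SCARNA class were 0.49 and 0.11.

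**Figure D5:**
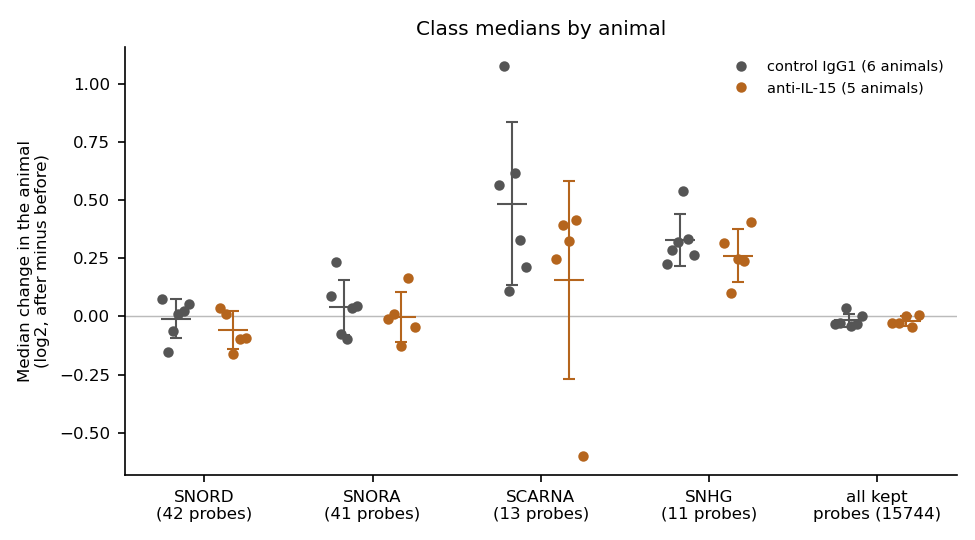
Median log2 change (vertical axis, after minus before) over the probes of each class in each animal, for both arms (control IgG1 6, anti-IL-15 5), with the mean and SD of each arm. All 11 SNHG medians lie above 0, while those of SNORD and SNORA lie on both sides of it.

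No member separated the arms at the threshold. None was called for the difference of the changes between the arms, against 0.00635% of all probes (1 probe), with 13 members at an unadjusted limma p under 0.05, which is 12.1% against 8.96% of all probes. After treatment no member was called between the anti-IL-15 and control groups, against 0.00635% of all probes. There 9 members had an unadjusted limma p under 0.05, or 8.41% against 7.22% of all probes. Before treatment the count was 0 members and 0% of all probes, with 13 members at an unadjusted p under 0.05, or 12.1% against 10.6% of all probes. Before treatment 12 of 13 SCARNA, 9 of 11 SNHG, 30 of 41 SNORA and 20 of 42 SNORD probes lay higher in the anti-IL-15 animals, without a call, against 48.1% of all probes. The largest SE of a difference among the called members was 0.64, for SCARNA17.

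The hosts that carry no member symbol moved in both directions. Of 48 kept probes for 37 such host genes, 3 rose and 3 fell in the mean change of the arms, or 12.5% against 5.32% of all probes. With the control antibody 1 rose (RPS13), or 2.08% against 2.14% of all probes. ZFAS1, a long RNA that hosts the SNORD12 guides, rose by 0.85 in the mean of the arms (SE 0.20, limma adjusted p = 0.0238), higher in 5 of 6 and 5 of 5 animals. The ribosomal protein genes RPS13 and RPL27A rose by 0.65 and 0.73. RNF149 fell by 0.72, the chaperone gene HSPA8 fell by 0.38 and the translation factor gene EIF4A2 fell by 0.36. A second HSPA8 probe had -0.07 and was not called. None of the guides within these genes was called. SNORD12 and SNORD12C had mean changes of 0.04 and 0.02 beside ZFAS1, and SNORD89 had -0.08 beside RNF149. SNORD14A had -0.08 beside RPS13 and SNORA63 had -0.30 beside EIF4A2. Over 42 pairs of a member and its human host with a kept probe, the sign of the change was shared in 19 pairs with the control antibody and 25 with anti-IL-15, where several pairs share a host.

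Other small structured RNAs also gave calls, all of them higher. Of 16 kept probes for 14 such RNAs, 13 were above 0 in each arm. In the mean change 4 were called, or 25% against 5.32% of all probes, with a median of 0.29 against -0.02 over all probes. TERC, the telomerase RNA and itself a box H/ACA RNA that passes through Cajal bodies, rose by 0.82 (SE 0.20, limma adjusted p = 0.0288). The RNU11 probes, for the U11 RNA of the minor spliceosome, rose by 0.56 and 0.40, and RN7SK, which holds back transcription elongation, rose by 0.78 on 1 of its 2 probes. The U1 probes RNU1-1 and RNU1-3, which are near copies, had mean changes of 0.32 and 0.35 and were not called. The 4 probes for ribosomal RNAs gave no call, and their changes with anti-IL-15 ran up to 2.06 for 28S.

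Proteins that build and use these RNAs gave few calls. None of 24 probes for the core and assembly proteins of small nucleolar ribonucleoproteins was called in either arm by limma. The smallest p values there belonged to NUFIP1, an assembly factor, with changes of -0.53 and -0.84, to DKC1, the dyskerin gene, with -0.30 after the control antibody, and to NHP2, a box H/ACA core protein, with 0.54 after anti-IL-15. Of 13 probes for Cajal body proteins 2 were called with the control antibody, or 15.4% against 2.14% of all probes. WRAP53, the protein that brings guide RNAs with a CAB box and TERC to Cajal bodies, rose by 0.79 in 6 of 6 animals (SE 0.19, adjusted p = 0.0436) and had a change of -0.04 with anti-IL-15. DDX20, a helicase of the SMN complex, gave signal on 5 of 6 earlier and none of 6 later arrays of the control arm, at least 1.47-fold lower (adjusted p = 0.0243), and on no array of the anti-IL-15 arm. DDX20 thus met the detection rule only through the earlier control arrays, so the rule itself favoured this pattern. Among 36 probes for ribosome biogenesis and RNA polymerase I, POLR1D, a subunit shared by RNA polymerases I and III, rose by 0.54 with the control antibody (adjusted p = 0.0474) and by 0.52 in the mean of the arms. In each of these comparisons 1 of the 36 probes was called, or 2.78%, against 2.14% and 5.32% of all probes. A second POLR1D probe stood at -0.49 in the control arm and was not called.

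Among factors that degrade or trim such RNAs 1 was called. CASC3, a component of the exon junction complex that acts in nonsense-mediated decay, fell in 11 of 11 animals, with a change of -0.89 with the control antibody (SE 0.20, limma adjusted p = 0.0301) and a mean change of -0.70 (adjusted p = 0.0133). It was 1 of 12 probes for nonsense-mediated decay factors, or 8.33%, against 2.14% of all probes with the control antibody and 5.32% in the mean change. None of 25 probes for the nuclear exosome and for small RNA trimming was called, and the smallest p values were those of NCBP2 (0.59) and INTS1 (0.68) with the control antibody and EXOSC10 (-0.64) and EXOSC1 (0.48) with anti-IL-15. Over the same arrays 7 of 18 probes for T cell, CD8 and effector memory markers were called lower with the control antibody, or 38.9% against 2.14% of all probes. PRF1 fell by 1.47 and CD8A fell by 0.77 and by 0.63 on 2 of 3 probes. With anti-IL-15 0 of 18 were called, against 0.254% of all probes. In the mean change of the arms 7 of 18 were called lower, or 38.9% against 5.32% of all probes. The part of a shift in cell state or purity in the changes of the members was not tested.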

How the data were processed

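Total RNA of sorted CD8+ TEM was extracted with a blood RNA kit, kept above a quality threshold, normalised to equal input, amplified and hybridised, per the labels' protocols. The deposited table holds 1 linear intensity per probe and array, neither background-subtracted nor normalised, with a deposited detection p-value. The authors' deposited value table gives log2 intensities that, judged from the values, were quantile normalised without background subtraction, and the submitters' processing notes name limma. That table was used as an alternative.

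Intensities were corrected with the normexp model (offset 16, negative controls estimated through the detection p-values), followed by quantile normalisation and log2, in limma 3.58.1 in R 4.3.3. After 9 probes with a value of 0 were left out, 15744 of 47230 probes passed the detection rule of the report. Symbols came from the platform's annotation, which names human genes, and host genes from human knowledge. Changes came from 1 limma fit with animal as a fixed block, in which the lone array of anti-IL-15 animal 3 carries no weight, while the arms were compared at each time in fits of 12 (after) and 11 (before) arrays. The variance prior was allowed a trend, and the Benjamini-Hochberg adjustment ran over all 15744 probes (threshold 0.05). The pairing comes from the donor label, and arrays of 1 animal deviated from their group means with correlations of -0.02 to 0.48 (median 0.29), while arrays of different animals gave a median of -0.04. Bounds for probes undetected on all arrays of a group use each array's lowest detected signal. The fits were tested on simulated data, and precision is limited by how few arrays there are.

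The members and gene lists were chosen with earlier results of these data known. The text names each called member, the 3 brightest probes and the 2 of smallest p in each arm per class, the probes at the edge of the detection rule, up to 4 called or 2 smallest-p probes per list, and hosts, with some left out for length. SNHG1, SNHG11, SNHG12, SNHG17, SCARNA11, SCARNA18, SNORD21, SNORA24 and the SNORD113 and SNORD114 repeats were added after their values were seen. So were guides of called hosts and the list members called in the mean change of the arms. Slides are not named in the file headers, so no slide block was run.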

Additional observations from a re-analysis of the deposited data

Results flagged for a closer look

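Within each group of 5 or 6 arrays, the highest or lowest array was marked when its gap to the nearest other array was a large part of the group's range by Dixon's test at the 95% level. Chance marks about 1 in 20 groups, and 4 of 76 groups were marked, over the 14 called probes, the 4 class medians and the number of members detected. SNORD43 stood at 6.46 in control animal 4 after treatment, with the next array at 5.20. SNORA35 stood at 4.87 in anti-IL-15 animal 1 after treatment, with the next at 4.54. SCARNA17 stood at 9.43 in control animal 3 before treatment, with the next at 7.46. The SNORA class median was 5.53 in control animal 3 before treatment, with the next at 5.30. No member moved one way in every control animal and the opposite way in every anti-IL-15 animal.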

How the results depend on the processing

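Counts of called members were compared under other processing. With the control antibody (5 in the report) 2 were called with no filter on detection, 2 with no replicate block, 3 with the animal as a random replicate block, 3 without the trend in eBayes, 13 when the model held the 28S change and 0 when it held cell number (log2). With anti-IL-15 (1) the count was 2 with 75th percentile scaling, 3 with 1 probe per gene, and 0 with no filter on detection, no replicate block, a random replicate block, either covariate, or no trend. In the mean of the arms (14) it was 4 with no filter on detection, 4 with no replicate block, 8 with the 28S covariate and 0 with the cell number covariate, where the mean change of SCARNA9 turned to -0.16. The difference between the arms had 1 call with the 28S covariate, against 0. Without the 5 animals with a large 28S rise, a setting chosen after seeing the data, the control, anti-IL-15 and mean counts were 0, with fewer animals. Leaving out 1 animal at a time gave 0 to 9 calls with the control antibody (0 without control animal 1 or 2), 0 to 3 with anti-IL-15, 4 to 16 in the mean of the arms (4 without control animal 1 or anti-IL-15 animal 1), and 0 in the other comparisons. With detection on all 23 arrays the SNORD medians were 0.20 and 0.10 over 10 probes, the SCARNA medians 1.04 and 0.58 over 5 and the control SNHG median 0.56 over 8. The change of each probe that stayed was the same, and the medians moved because probes without signal on every array were left out. Leaving out 1 animal moved class medians to between -0.05 and 0.06 (SNORD, control), -0.03 and 0.07 (SNORD, anti-IL-15), -0.01 and 0.09 (SNORA, control), -0.08 and 0.02 (SNORA, anti-IL-15), 0.44 and 0.54 (SCARNA, control), -0.02 and 0.32 (SCARNA, anti-IL-15), 0.087 and 0.24 (SNHG, control) and 0.10 and 0.24 (SNHG, anti-IL-15). The 20 called values of single members were tried under 440 alternatives, in which 246 kept call and direction, 193 lost the call and 1 reversed. Except where stated, the cause was not tested.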
